A study of Mus musculus with 14 samples.

Results

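Organic anion and cation uptake transporters of the liver were followed in mice with and without autoimmune hepatitis (AIH). They were taken as the annotated protein-coding genes whose symbols start with Slc22a and a number or with Slco and a number. This gave 39 genes, 25 Slc22a and 14 Slco, of 51912 gene rows and of 21793 annotated protein-coding genes, and none of them was missing from the files. A further 2 pseudogenes matched by symbol were left out. RNA-seq read counts came from pieces of the left liver lobe of untreated mice aged 20 weeks, 14 samples in all. AIH livers (n = 5) came from Tet2fl/fl vav cre+ mice that had developed hepatitis on their own, and asymptomatic livers (n = 5) from symptom-free mice of that genotype. Control livers (n = 4) came from healthy Tet2fl/fl cre- littermates, described as wild type in the labels. All groups thus carried the floxed Tet2 alleles, and Vav drives Cre in blood cells.

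Uptake transporters sit mostly in the basolateral membrane of hepatocytes, facing the sinusoid, where they bring bile acids, bilirubin conjugates, hormones, drugs and toxins into the cell. Slco genes encode organic anion transporting polypeptides, which carry large amphipathic anions. Slc22a genes encode organic cation transporters, carnitine transporters and organic anion transporters. Several of the rodent genes are known to differ strongly between male and female livers under the control of growth hormone.

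Each library held 15.97 to 18.92 M counts (mega counts) assigned to genes. Sex is not in the labels. Read from Xist and from 4 Y-linked genes, it was female in 4 AIH livers and male in AIH 4, male in all 5 asymptomatic livers, and female in control 2 and control 3 but male in control 1 and control 4. Group and sex were therefore entangled, above all between AIH and asymptomatic livers. The AIH libraries also carry the highest library numbers, so that any order of preparation cannot be told apart from AIH. Of 12 hepatocyte markers, none passed the test between AIH and control livers, with summed levels of 105100 to 193100 CPM (counts per 1 M of the library's total after TMM scaling, which adjusts the totals for differences in composition) in AIH, 140400 to 163800 CPM in asymptomatic and 130300 to 179400 CPM in control livers. Between AIH and asymptomatic livers 3 of the 12 were lower in AIH, Serpina1c (-1.07 ± 0.22, adjusted p = 0.00262), Apob (-1.02 ± 0.32, adjusted p = 0.0274) and Ttr (-0.58 ± 0.20, adjusted p = 0.0425), as log2 fold changes. Of 8 monocyte and macrophage markers all 8 rose in AIH livers, with summed levels of 820 to 1672 CPM in AIH, 215 to 275 CPM in asymptomatic and 184 to 392 CPM in control livers. All 8 T cell markers (12.8 to 101 CPM in AIH, 3.55 to 6.76 CPM in asymptomatic and 3.04 to 7.08 CPM in control livers) and 7 of 7 tested neutrophil markers (21.0 to 1273 CPM in AIH, 1.77 to 7.95 CPM in asymptomatic and 1.46 to 3.79 CPM in control livers) also rose in AIH livers. Of 6 Kupffer cell markers 5 rose, with summed levels of 1123 to 3372 CPM in AIH, 671 to 1106 CPM in asymptomatic and 469.5 to 659.8 CPM in control livers. The marker that did not pass, C6, averaged 155 CPM in AIH, 477 CPM in asymptomatic and 144 CPM in control livers. The higher sums of asymptomatic than of control livers lay mostly in C6. In a piece of tissue, fewer cells of a type and less RNA per cell cannot be told apart, and the part of these other cells in the results below was not tested.

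Liver RNA of this transporter group was dominated by a few genes. Slco1b2 alone held 44.7% of the CPM of the 39 members, and the top 4 members held 77.5%. Levels between genes are compared per kilobase of annotated exon. In control livers Slco1b2 came first at 349 ± 48.2 CPM per kb (SD, n = 4), its range above that of every other member. Of the others reported here, Slc22a18 (46.6 ± 18.1 CPM per kb), Slco1a1 (46.4 ± 58.6), Slco2b1 (40.8 ± 6.79), Slc22a26 (38.3 ± 42.7) and Slco1a4 (29.1 ± 16.7) had the highest means. From Slc22a18 down to Slc22a15 every neighbour in this order overlapped with the next, so their order was not resolved by the 4 livers. Slco3a1, the lowest of the 19 members with a mean of at least 1 CPM, lay at 0.518 ± 0.0757 CPM per kb.

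**Figure D1:**
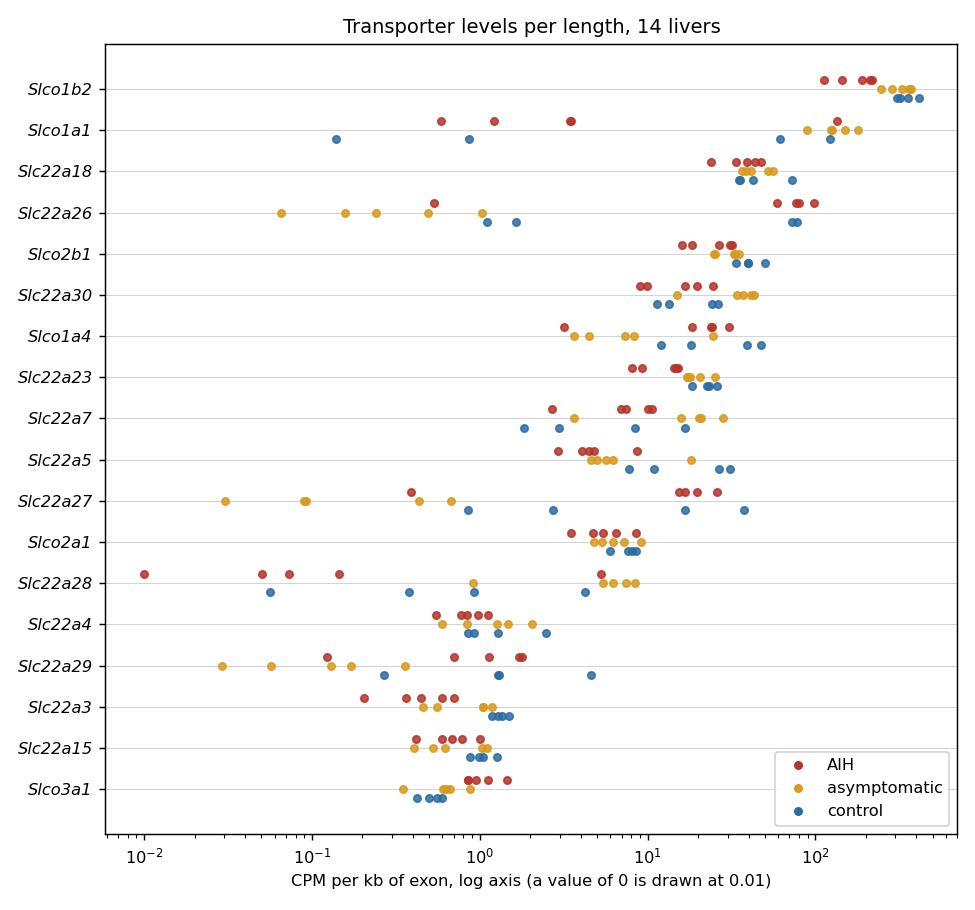
Level of the reported transporters with a mean of at least 1 CPM, in CPM per kb of exon on a log axis, 1 point per liver, with AIH, asymptomatic and control livers in separate colours from top to bottom of each row. Slco1b2 lies above 100 CPM per kb in all 14 livers, and Slco1a1, Slc22a26, Slc22a27, Slc22a28 and Slc22a29 spread over more than a factor of 10 within the AIH and the control group.

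Of the 39 members, 22 passed the filter on low counts and were tested. Of the 17 others, 7 had no count in any library: Slc22a6, Slc22a13, Slc22a14, Slc22a16, Slc22a19, Slco6c1 and Slco6d1. Slc22a6, a basolateral uptake transporter of the kidney, is among these, and a count of 0 in all 14 libraries allows a level of up to 0.0122 CPM. The remaining 10 had 1 to 105 counts in total, of which Slco4c1 had the most and no other more than 20. Kidney tubule markers summed to 0 to 2.91 CPM in AIH, 0.294 to 4.03 CPM in asymptomatic and 0 to 1.34 CPM in control livers.

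AIH livers held less transporter RNA in sum. Against control livers the largest difference in mean CPM lay in Slco1b2. Slco1a1 differed mainly from the asymptomatic livers, all of them male. Summed over the 39 members, AIH livers held 2260 ± 436 CPM (SD, n = 5; 1696 to 2830), asymptomatic livers 3447 ± 409 CPM (n = 5; 2845 to 3868) and control livers 3505 ± 469 CPM (n = 4; 2918 to 3932). Scaled in this way the AIH range lay below both others, while as shares of unscaled gene counts the members held 0.160% to 0.292% in AIH, 0.268% to 0.365% in asymptomatic and 0.295% to 0.384% in control livers, so that AIH and asymptomatic livers overlapped. Slco1b2 averaged 863 CPM in AIH, 1567 CPM in asymptomatic and 1722 CPM in control livers, and Slco1a1, which differs by sex, 151 CPM in AIH, 704 CPM in asymptomatic and 245 CPM in control livers. The 37 members without these summed to 1245 ± 174 CPM in AIH (1048 to 1485), 1176 ± 134 CPM in asymptomatic (983 to 1305) and 1538 ± 456 CPM in control livers (1076 to 2057), and all 3 groups overlapped. Between AIH and control livers, 7 of the 22 tested members passed edgeR's quasi-likelihood test at an adjusted p under 0.05, beside 21.7% of the 14638 genes tested. In AIH livers 5 members fell, beside 6.08% of all genes lower, and 2 rose, beside 15.6% of all genes higher. One of those that rose, Slco4a1, passed the filter only through AIH livers and is no support for a rise. The median log2 fold change of the 22 was -0.37, against -0.01 over all genes tested, and 15 of them lay below 0. In 6 of the 22, Slco4a1 among them, the AIH and control values did not overlap, beside 19.8% of all genes tested.

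Slco1b2, which takes up bile acids, bilirubin conjugates, statins and several hepatotoxins and stands for the human liver OATP1B transporters, fell in AIH livers. It lies at chr6:141629518-141686646 on the plus strand (GRCm38). AIH 1 to 5 held 932, 713, 557, 1073 and 1042 CPM. Asymptomatic 1 to 5 held 1619, 1772, 1825, 1408 and 1209 CPM, and control 1 to 4 held 2038, 1567, 1767 and 1515 CPM. Every AIH liver lay below every asymptomatic and every control liver, whether male or female. The log2 fold change was -0.996 ± 0.21 (SE) relative to control livers (adjusted p = 0.00345) and -0.86 ± 0.20 relative to asymptomatic livers (adjusted p = 0.00488). With sex as a term in the fit, the first of these held (-0.93 ± 0.21, adjusted p = 0.00753) and the second did not pass (-0.68 ± 0.27, adjusted p = 0.136). The stretch around its start site is shown because this gene has the highest level of all members, and because the window holds a match to the motif of STAT5, a factor downstream of growth hormone. Capitals mark this TTCNNNGAA match, first base at -206 from the start. The window runs from 250 bases before to 50 bases after the start (RefSeq, GRCm38.p6, plus strand, chr6:141629268-141629567).

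Slco1b2: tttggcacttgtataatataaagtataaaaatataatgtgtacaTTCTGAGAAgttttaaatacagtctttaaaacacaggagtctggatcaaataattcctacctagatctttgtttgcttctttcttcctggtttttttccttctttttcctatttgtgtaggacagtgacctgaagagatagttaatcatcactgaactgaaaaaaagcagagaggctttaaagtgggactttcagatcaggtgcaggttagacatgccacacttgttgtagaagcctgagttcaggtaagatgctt

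Of 32544 mouse promoters of this length, 8.33% hold a TTCNNNGAA match on either strand and 0.479% a CAAAGTCCA match (HNF4). Promoters were given for 34 of the 39 members. Among these, 7 members held a TTCNNNGAA match and none held CAAAGTCCA. Slc22a7, Slc22a21, Slco3a1 and Slco5a1 were among those with no entry. A match is a run of letters and not evidence of binding.

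Slco2b1, a carrier of sulfated steroids, followed Slco1b2 at a lower level and with a smaller difference. Its AIH values in replicates 1 to 5 were 158, 96.1, 109.9, 184 and 191 CPM, and asymptomatic 1 to 5 held 211, 195, 197, 149.8 and 148 CPM. Control 1 to 4 held 238, 237, 297 and 199.5 CPM, all above the AIH livers. The log2 fold change was -0.72 ± 0.21 in AIH against control (adjusted p = 0.0274). This call was lost when counts were scaled by library totals alone (-0.56, adjusted p = 0.0994), when only these 2 groups were fitted, and when AIH 2, AIH 3 or control 3 was left out (adjusted p up to 0.0782). Against asymptomatic livers the difference was -0.29 ± 0.20 (adjusted p = 0.307). Exons of the antisense genes Gm15635 and Gm34280, with 16 and 53 counts over all libraries, overlap those of Slco2b1.

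Slc22a23, an orphan member of the Slc22a family, held 96.6, 59.0, 51.9, 94.6 and 92.0 CPM in AIH 1 to 5. Asymptomatic 1 to 5 held 110.1, 132, 111, 161 and 115 CPM, and control 1 to 4 held 146, 166, 148 and 117 CPM. The AIH livers lay below all others, AIH 2 and AIH 3 lowest. The log2 fold change was -0.87 ± 0.20 against control livers (adjusted p = 0.00725) and -0.67 ± 0.19 against asymptomatic livers (adjusted p = 0.0180). The call against asymptomatic livers was lost with scaling by library totals (-0.45, adjusted p = 0.124), with sex as a term (-0.66, adjusted p = 0.154) and without asymptomatic 4 (-0.57, adjusted p = 0.0540).

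Slc22a3, the transporter of monoamines and other organic cations known as Oct3, was low in all livers. Values in AIH 1 to 5 were 2.69, 0.923, 1.63, 2.01 and 3.18 CPM, asymptomatic 1 to 5 held 4.75, 4.71, 5.33, 2.07 and 2.53 CPM, and control 1 to 4 held 6.14, 5.82, 5.34 and 6.76 CPM. Both the AIH and the asymptomatic livers lay below the control livers, asymptomatic 3 and control 3 being all but equal. The fall in AIH against control was -1.52 ± 0.34 (adjusted p = 0.00575), while asymptomatic against control gave -0.63 ± 0.34 (adjusted p = 0.530 by edgeR). Exons of Slc22a3 overlap those of Plg, the plasminogen gene, on the opposite strand, and 8.27% of its 50-base stretches also occur in other genes, among them Plg. The strand setting is not given in the sources used here, so reads of the overlap cannot be told apart. Plg ranged from 2280 to 3355 CPM in AIH, 2558 to 2709 CPM in asymptomatic and 2220 to 3045 CPM in control livers.

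**Figure D2:**
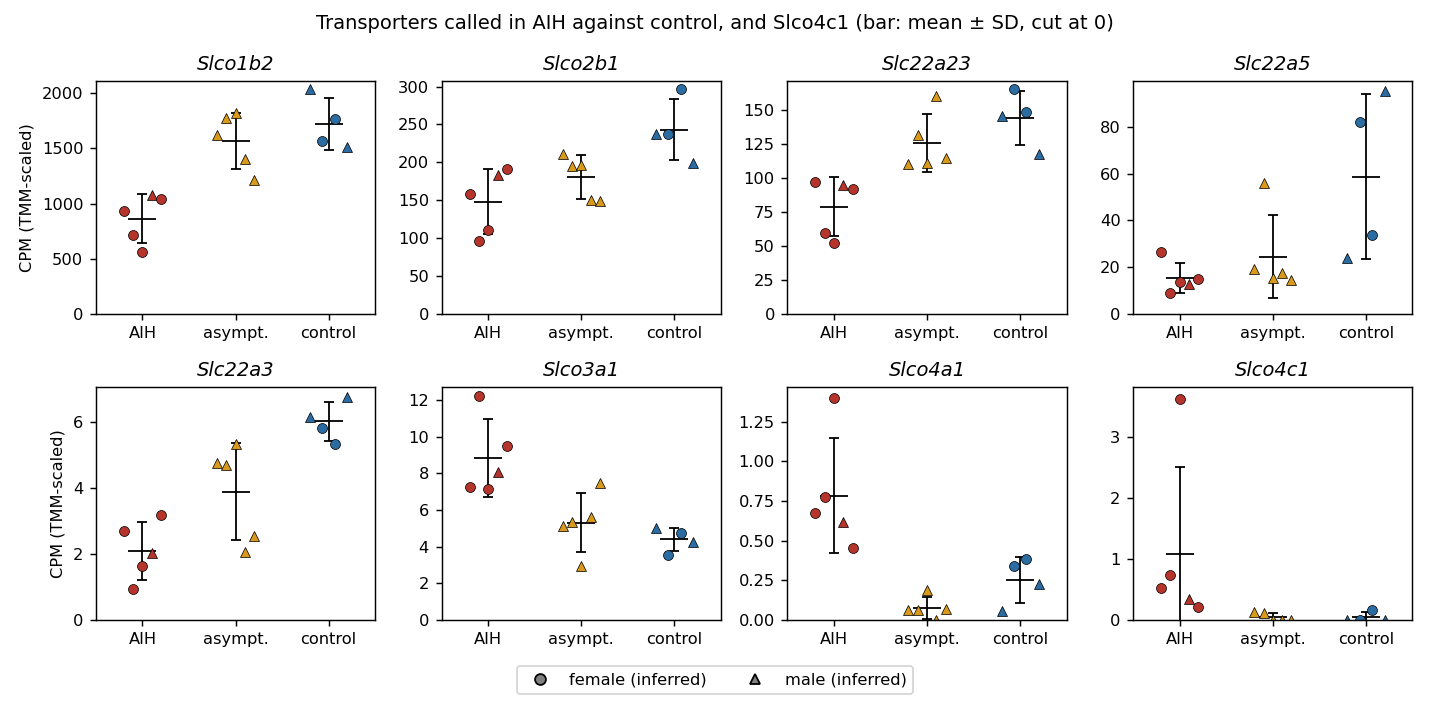
CPM of the 7 transporters that passed the test in AIH against control and of Slco4c1, which was not tested, 1 point per liver (circles female, triangles male, inferred), with the mean and SD as bars cut at 0. Slco1b2 and Slc22a23 are lower in every AIH liver than in any other, and Slc22a5 is high in only 3 of the 9 livers without AIH.

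Slc22a5, the high-affinity carnitine transporter known as Octn2, had the largest fall among the called members, but its control values were split. AIH 1 to 5 held 26.5, 9.04, 13.7, 12.5 and 14.8 CPM, asymptomatic 1 to 5 held 19.1, 56.2, 15.3, 17.4 and 14.2 CPM, and control 1 to 4 held 23.7, 82.1, 33.7 and 95.4 CPM. Control 2, control 4 and asymptomatic 2 stood high, and AIH 1 lay within the control range. The log2 fold change was -1.94 ± 0.48 in AIH against control (adjusted p = 0.0104). The same 3 livers stood apart in Cyp4a14, a fatty acid hydroxylase of the fasting response, with 7851 CPM in asymptomatic 2 and 10740 and 8541 CPM in control 2 and control 4, while AIH livers held 51.3 to 698 CPM and no other liver held more. Without these 3 libraries, a setting chosen after the data were seen, the Slc22a5 difference was -0.93 ± 0.32 (adjusted p = 0.0925) and only Slco1b2 of the 7 members still passed (-1.16 ± 0.26, adjusted p = 0.0220). That fit set 5 AIH livers against 2 control livers and called 1246 of 15374 genes (8.1%). The other 5 differences were -0.92 for Slc22a23 (adjusted p = 0.0526), -1.47 for Slc22a3 (0.0647), -0.88 for Slco2b1 (0.0715), 0.84 for Slco3a1 (0.150) and 1.75 for Slco4a1 (0.198). Each kept its direction, and that of Slc22a5 moved most. About 26.3% of the 50-base stretches of Slc22a5 also occur in other genes, among them Gm12220, so its level is uncertain.

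Slc22a7, known as Oat2 and a carrier of nucleotides and other anions, was low where Slc22a5 was high. It stood in AIH 1 to 5 at 15.7, 5.69, 14.6, 22.3 and 21.1 CPM, asymptomatic 1 to 5 held 43.6, 7.65, 42.7, 33.4 and 58.9 CPM, and control 1 to 4 held 17.7, 6.27, 35.0 and 3.85 CPM. Besides AIH 2, the livers under 8 CPM were asymptomatic 2, control 2 and control 4. The log2 fold change of AIH livers was 0.01 ± 0.61 relative to control livers (adjusted p = 0.991) and -1.23 ± 0.58 relative to asymptomatic livers (adjusted p = 0.121). Without asymptomatic 2 the difference from asymptomatic livers was -1.49 (adjusted p = 0.0426). Dbp and Arntl are clock genes that swing in opposite phase over the day, and the log2 of their ratio ran from -1.87 to 5.78 in AIH, 1.42 to 6.18 in asymptomatic and -4.59 to 7.69 in control livers. Control 2 and control 4 held the lowest values (-4.59 and -2.88), and the part of feeding or time of day in these results was not tested.

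**Figure D3:**
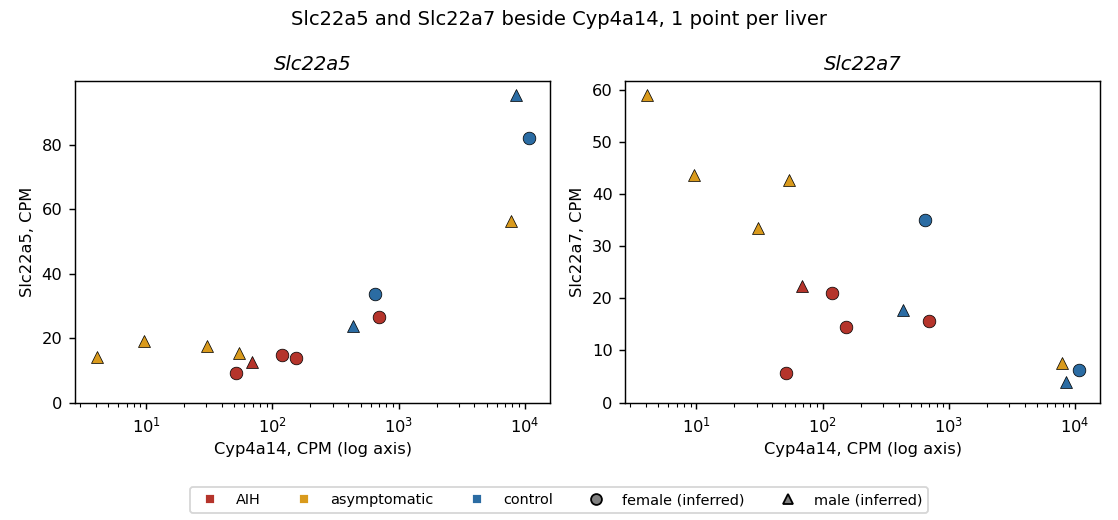
Slc22a5 and Slc22a7 (CPM) against Cyp4a14 (CPM, log axis), 1 point per liver, coloured by group and shaped by inferred sex. The 3 livers above 1000 CPM of Cyp4a14 hold 56.2 to 95.4 CPM of Slc22a5 and 3.85 to 7.65 CPM of Slc22a7.

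Slco3a1, a widely expressed carrier of prostaglandins and thyroid hormone, rose in AIH livers. In AIH 1 to 5 it had 7.25, 12.2, 7.17, 8.06 and 9.49 CPM, asymptomatic 1 to 5 held 5.14, 5.35, 2.95, 5.62 and 7.45 CPM, and control 1 to 4 held 5.03, 3.56, 4.74 and 4.25 CPM. Every AIH liver lay above every control liver, and asymptomatic 5 reached into the AIH range. The log2 fold change was 1.01 ± 0.25 relative to control livers (adjusted p = 0.0103) and 0.74 ± 0.23 relative to asymptomatic livers (adjusted p = 0.0274). The difference from asymptomatic livers lost its call when AIH 2, AIH 5 or asymptomatic 1 was left out (adjusted p up to 0.0753).

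Slco4a1, a thyroid hormone carrier of many tissues, was scarce in all livers. It reached the level of the count filter in 4 AIH livers, in 0 asymptomatic and in 0 control livers, so it could enter the test only by being higher in AIH, and its values are given as a description. AIH livers together held 74 counts, asymptomatic livers 6 and control livers 18. Scaled to library size, AIH 1 to 5 held 0.672, 0.778, 1.40, 0.615 and 0.455 CPM, asymptomatic 1 to 5 held 0.0650, 0.0588, 0.188, 0 and 0.0665 CPM, and control 1 to 4 held 0.0585, 0.339, 0.381 and 0.223 CPM. All AIH livers lay above all others. The fitted difference was 1.60 ± 0.53 against control livers (adjusted p = 0.0439) and 3.24 ± 0.59 against asymptomatic livers (adjusted p = 0.00106). The first of these calls was lost with sex as a term (1.44 ± 0.53, adjusted p = 0.0791) and when control 1, 2, 3 or 4 was left out (adjusted p up to 0.125), and without AIH 1, 2, 3 or 4 the gene was under the count filter, while the second held with sex as a term (2.59 ± 0.74, adjusted p = 0.0412).

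Slco4c1, best known from the kidney as a carrier of digoxin and thyroid hormone, was below the count filter yet had most of its counts in AIH livers. It had 98 counts over the AIH livers, 4 over the asymptomatic and 3 over the control livers. AIH 1 to 5 held 0.528, 0.729, 3.61, 0.336 and 0.202 CPM, asymptomatic 1 and 2 held 0.130 and 0.118 CPM with none in the others, and control 3 held 0.163 CPM with none in the others. The AIH livers lay above all others, AIH 3 far above the rest of its group. The ratio of pooled levels in AIH to control livers was 24.1 (95% interval 8.01 to 119), and 10.8 without AIH 3 (3.41 to 54.7). These intervals cover counting error only. In a fit without the count filter, its log2 fold change was 4.43 ± 1.13 (adjusted p = 0.0147, edgeR). Slco4c1 was picked after its values were seen, so the ratios and this fit are a description and no support for a rise. Of the 6 kidney tubule markers, Aqp2, Slc12a1 and Kap had no count in any library. Umod had 40 counts in AIH 4, 2 each in AIH 1 and AIH 3, 0 in AIH 2 and AIH 5, 1 each in asymptomatic 1 and 3, and 0 in the other livers. Umod was highest in AIH 4 and Slco4c1 in AIH 3. Slc34a1 reached at most 0.056 CPM in an AIH liver and had no count in the other groups, a level too low to compare. Lrp2 averaged 0.230 CPM in AIH, 1.38 CPM in asymptomatic and 0.504 CPM in control livers. The part of kidney tubule RNA in the Slco4c1 values was not tested.

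The other members described here did not pass between AIH and control livers. Slc22a18, from an imprinted gene cluster on chromosome 7, held 64.0 ± 15.8 CPM in AIH, 76.5 ± 14.5 CPM in asymptomatic and 79.1 ± 30.7 CPM in control livers (-0.31 ± 0.24 in AIH against control, adjusted p = 0.408). Slco2a1, the prostaglandin transporter, held 77.7 ± 26.1 CPM in AIH, 88.9 ± 23.0 CPM in asymptomatic and 102 ± 15.2 CPM in control livers (-0.40 ± 0.24, adjusted p = 0.268). Slc22a15, of little known substrate range, held 9.92 ± 3.10 CPM in AIH, 10.5 ± 4.45 CPM in asymptomatic and 14.9 ± 2.36 CPM in control livers (-0.59 ± 0.30, adjusted p = 0.178). Slc22a4, the ergothioneine transporter, held 2.18 ± 0.555 CPM in AIH, 3.17 ± 1.44 CPM in asymptomatic and 3.54 ± 1.92 CPM in control livers (-0.70 ± 0.38, adjusted p = 0.217). Slc22a17, a receptor for lipocalin, and Slc22a21, a carnitine transporter of the mouse, lay under 1 CPM in every liver, and neither passed in any of the 3 group comparisons.

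**Figure D4:**
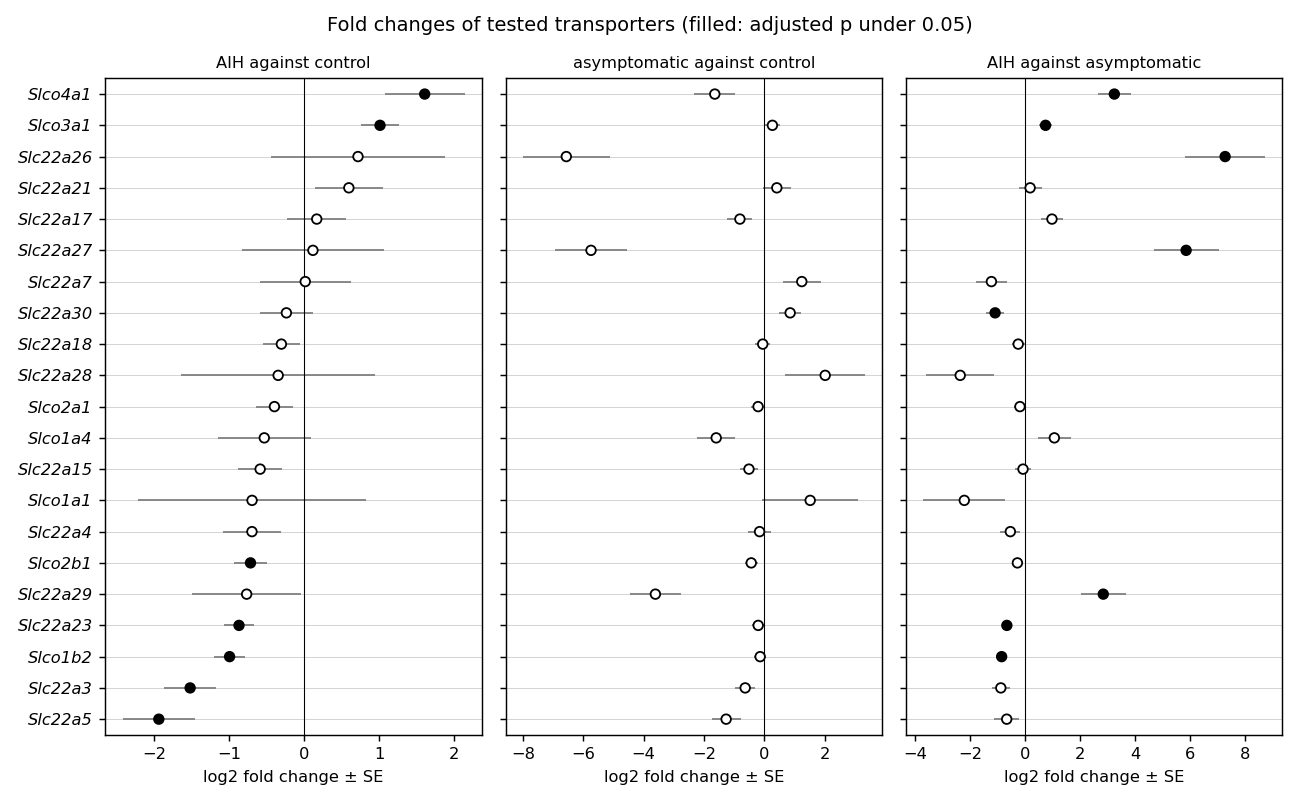
Log2 fold change ± SE of the tested and reported transporters in 3 panels (AIH over control, asymptomatic over control, AIH over asymptomatic), with filled points at an adjusted p under 0.05 and a separate scale in each panel. The filled points number 7, 0 and 8 (Slco4a1, in the first and the last, is a description only), and the widest intervals belong to genes that differ by sex.

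The members that differ by sex formed a group of their own. Between female and male control livers, 2 members passed beside 0.465% of all genes tested, and in a fit of all 14 livers with group and sex as terms 4 did, beside 1.01% of all genes. Slco1a1, a carrier of bile acids and steroid conjugates known to be high in male mice, held 0.735 and 4.58 CPM in the female controls 2 and 3, against 648 and 327 CPM in the male controls 1 and 4. Its log2 fold change was -7.51 ± 1.03 in female against male controls (adjusted p = 0.00264). The female AIH 1, 2, 3 and 5 held 6.43, 18.2, 18.5 and 3.08 CPM, the male AIH 4 held 709.6 CPM, and the 5 male asymptomatic livers held 472 to 943.5 CPM. Every male liver of any group thus lay above every female liver. Within females, Slco1a1 differed by 2.11 ± 0.77 in AIH against control (adjusted p = 0.0931).

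Slco1a4, a relative that also takes up cardiac glycosides, had the opposite tendency without passing. The female AIH livers held 119 to 197 CPM and the male AIH 4 held 20.4 CPM. Asymptomatic livers, all male, held 23.5 to 157 CPM, asymptomatic 2 being the highest. The female controls held 250.4 and 303 CPM and the male controls 117 and 76.9 CPM. Within females the difference in AIH against control was -0.82 ± 0.57 (adjusted p = 0.382), although all 4 AIH females lay below both control females. The coding sequences of Slco1a1 and Slco1a4 are 86.7% identical, and only 1.64% and 1.61% of their 50-base stretches occur in other genes.

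On chromosome 19, where 10 of the 39 members lie, a cluster of rodent organic anion transporters held genes of either direction. Slc22a26 was the female one: the AIH females held 175.5 to 290.2 CPM and AIH 4 held 1.57 CPM, asymptomatic livers held 0.194 to 3.06 CPM, the female controls 229 and 215.5 CPM and the male controls 3.27 and 4.86 CPM. Its log2 fold change was 5.77 ± 0.79 in female against male controls (adjusted p = 0.00264). Slc22a27 had the same direction, with 33.2 to 56.2 CPM in AIH females, 0.839 CPM in AIH 4, 0.0650 to 1.44 CPM in asymptomatic livers, 35.9 and 81.3 CPM in female controls and 5.90 and 1.84 CPM in male controls. It passed in the fit of all livers (4.49 ± 0.70 in females against males, adjusted p = 0.00333) and not within controls (3.92 ± 0.80, adjusted p = 0.0588). Slc22a28 had the male direction, with 0 to 0.291 CPM in AIH females, 10.6 CPM in AIH 4, 1.82 to 16.8 CPM in asymptomatic livers, 0.113 and 0.763 CPM in female controls and 8.53 and 1.84 CPM in male controls. It too passed in the fit of all livers (-4.87 ± 0.79, adjusted p = 0.00464) and not within controls (-3.53 ± 1.10, adjusted p = 0.452).

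Slc22a30, the nearest relative of Slc22a28, did not pass between the sexes (0.01 ± 0.52 within controls, adjusted p given as 1). It held 30.5, 56.1, 33.3 and 66.2 CPM in the AIH females and 82.2 CPM in AIH 4, 50.3 to 144.5 CPM in asymptomatic livers, 38.4 and 88.5 CPM in female controls and 81.1 and 45.3 CPM in male controls. The coding sequences of this pair are 98.8% identical, and 53.9% of the 50-base stretches of Slc22a28 and 34.3% of those of Slc22a30 occur in other genes, so reads may have been lost or shared between them and their levels are uncertain. The same holds for Slc22a27 and Slc22a29, at 97.3% coding identity. The start regions of Slc22a28 and Slc22a30 are shown because the pair is nearly identical there, while Slc22a28 passed between the sexes in the fit of all livers and Slc22a30 did not (-0.38 ± 0.37, adjusted p = 0.845). The difference between the 2 genes was not tested. Aligned, they share 288 bases, which is 96.0% of the window. Capitals mark the 6 bases that differ between them and the 6 at an end that have no partner (RefSeq, GRCm38.p6, minus strand, chr19:8131933-8132232 and chr19:8405056-8405355).

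Slc22a28: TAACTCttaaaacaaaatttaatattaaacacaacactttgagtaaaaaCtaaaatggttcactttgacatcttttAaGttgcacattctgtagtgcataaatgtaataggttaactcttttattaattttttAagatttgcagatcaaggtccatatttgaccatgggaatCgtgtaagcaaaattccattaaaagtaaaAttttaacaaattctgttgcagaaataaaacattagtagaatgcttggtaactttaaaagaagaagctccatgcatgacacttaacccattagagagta

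Slc22a30: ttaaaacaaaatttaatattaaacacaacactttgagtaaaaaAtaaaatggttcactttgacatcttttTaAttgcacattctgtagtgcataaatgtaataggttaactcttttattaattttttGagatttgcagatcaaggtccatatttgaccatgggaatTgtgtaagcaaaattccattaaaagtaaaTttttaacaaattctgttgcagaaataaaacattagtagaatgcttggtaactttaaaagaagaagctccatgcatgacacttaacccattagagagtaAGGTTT

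The start region of Slc22a26, the member with the largest female excess in control livers, is unlike these, at 55.7% and 56.3% identity to Slc22a28 and Slc22a30. Capitals mark its TTCNNNGAA match, first base at -141 from the start (minus strand, chr19:7802618-7802917). The windows of Slco1a1, Slc22a27 and Slc22a28, which also differed by sex, held no such match. That of Slc22a19, which had no count in any library, held 2. A link between the match and sex was not tested.

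Slc22a26: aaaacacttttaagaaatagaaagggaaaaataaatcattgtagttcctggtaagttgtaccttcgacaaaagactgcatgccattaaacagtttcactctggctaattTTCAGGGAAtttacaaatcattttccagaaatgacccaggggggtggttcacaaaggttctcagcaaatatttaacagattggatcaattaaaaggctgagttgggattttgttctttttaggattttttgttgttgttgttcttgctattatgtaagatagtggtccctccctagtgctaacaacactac

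**Figure D5:**
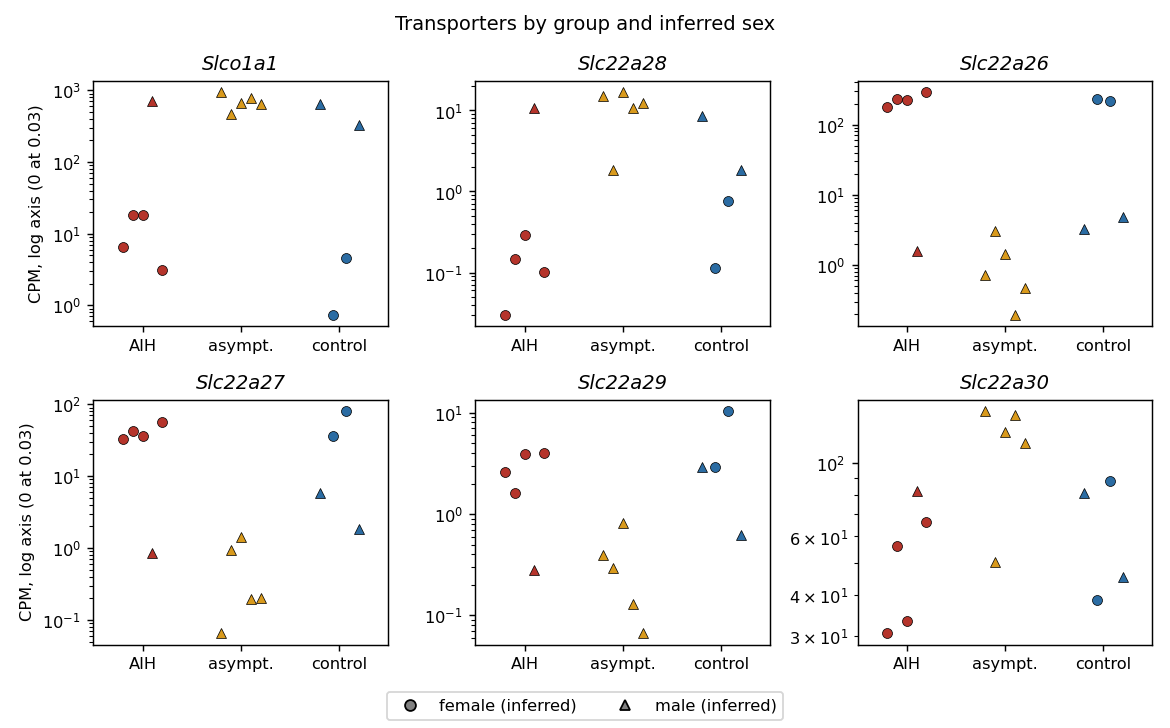
CPM of Slco1a1 and of 5 Slc22a genes of chromosome 19 by group, on log axes with a value of 0 drawn at 0.03, 1 point per liver (circles female, triangles male, inferred). AIH 4, the male AIH liver, lies with the male livers of the other groups for Slco1a1, Slc22a26, Slc22a27 and Slc22a28, while the sexes overlap for Slc22a30.

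Between AIH and control livers none of these sex-dependent members passed. Slc22a26 gave 0.72 ± 1.16 (adjusted p = 0.708), Slc22a27 0.11 ± 0.95 (adjusted p = 0.949), Slc22a28 -0.35 ± 1.29 (adjusted p = 0.882) and Slco1a1 -0.70 ± 1.52 (adjusted p = 0.789). AIH 4 decided the outcome for a pair of them: without it, leaving females only in the AIH group, Slco1a1 (-4.40, adjusted p = 0.0319) and Slc22a28 (-4.36, adjusted p = 0.0152) were called lower. The control group in that fit still held both sexes. Among females, Slco1a1 averaged 11.55 CPM in AIH and 2.655 CPM in control livers, the opposite direction. Slc22a28 averaged 0.135 and 0.438 CPM there. The difference of the AIH effect between females and males was tested directly, with 1 male AIH liver, and 0 of the 22 members and 0 of 14638 genes passed in edgeR, where 404 genes had an unadjusted p under 0.05. Contrasts within a sex came from the fit with a mean per group and inferred sex, which took its spread from all libraries of both sexes. Within females (4 AIH against 2 control livers), Slc22a23 (-1.07 ± 0.26, adjusted p = 0.0179), Slco1b2 (-1.04 ± 0.26, adjusted p = 0.0222) and Slco2b1 (-0.95 ± 0.27, adjusted p = 0.0352) fell and no member rose. Of all genes 11.9% were called in that contrast, 1379 higher (9.42%) and 367 lower (2.51%). Within males, with 1 AIH liver, no member passed, beside 447 genes (3.05%), of which 5 were lower.

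Asymptomatic livers were set against control livers to ask whether transporter RNA differs in mice with Vav-cre but no symptoms. No member passed edgeR's test, and no gene of the 14638 tested did (0%), while the unadjusted p was under 0.05 for 7 members and 1542 genes. By DESeq2 118 genes were called (0.806%), with Slc22a26, Slc22a27 and Slc22a29 as members (all lower), and limma-voom with quality weights called 1299 genes (8.87%) and 7 members, of which 3 were higher and 4 lower. In 3 of 22 members the groups did not overlap, beside 2.43% of all genes: Slc22a3, Slc22a26 and Slc22a27, each lower. All asymptomatic livers were male. These genes are named because the groups did not overlap, so that male controls lay above them was fixed by that choice. Slc22a26 reached 3.06 CPM in asymptomatic livers, against 3.27 and 4.86 CPM in male controls. Slc22a27 reached 1.44 CPM, against 5.90 and 1.84 CPM in male controls. Within males Slc22a26 gave -1.77 (adjusted p = 0.828) and Slc22a27 -2.73 (adjusted p = 0.828). Over both sexes Slc22a26 gave -6.56 ± 1.44 (adjusted p = 0.308) and Slc22a27 -5.74 ± 1.20 (adjusted p = 0.308). Slco1b2 stood at 1567 ± 258 CPM in asymptomatic and 1722 ± 237 CPM in control livers (-0.14 ± 0.21, adjusted p = 0.847).

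AIH livers were set against asymptomatic livers of the same genotype, and 8 of 22 members passed, beside 29.8% of all genes tested. In AIH livers 5 were higher, beside 19.1% of all genes, and 3 lower, beside 10.7% of all genes. In 4 of 22 the values did not overlap, beside 16.9% of all genes. Slco4a1 and Slc22a17 are among these, and both passed the count filter only through AIH livers, where they were higher. Slc22a17 reached its level in 5 AIH, 0 asymptomatic and 2 control livers, so neither is support for a difference. Apart from Slco1b2, Slc22a23, Slco3a1 and Slco4a1, the called members were Slc22a26 (7.28 ± 1.46, adjusted p = 0.00207), Slc22a27 (5.86 ± 1.19, adjusted p = 0.00218), Slc22a29 (2.84 ± 0.81, adjusted p = 0.0172) and Slc22a30 (-1.10 ± 0.34, adjusted p = 0.0255). With 4 female and 1 male liver against 5 male livers, sex and disease cannot be told apart for these 4 genes. The same imbalance bears on the other called members, Slco1b2, Slc22a23 and Slco3a1 among them. With sex as a term, Slc22a26 gave 1.18 ± 0.68 (adjusted p = 0.315) and Slc22a27 1.55 ± 0.81 (adjusted p = 0.267), and Slco4a1, which AIH livers alone brought past the filter, was the only member called, beside 1372 of 14638 genes (9.37%), 1222 higher and 150 lower. Slc22a29 held 2.59, 1.60, 3.91, 0.280 and 4.04 CPM in AIH 1 to 5 and 0.0665 to 0.816 CPM in asymptomatic livers, with the male AIH 4 inside the asymptomatic range. Slc22a30 lost its call when AIH 1, AIH 3, asymptomatic 1 or asymptomatic 4 was left out (adjusted p up to 0.0644). Both this comparison and that with control livers use the same 5 AIH livers, so they are not independent.

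Other genes of hepatic transport were read from lists chosen with earlier results of these data known. Among 15 other sinusoidal uptake carriers tested, 3 fell and 3 rose in AIH against control livers. The counts of this and the following lists stand beside 6.08% of all genes lower and 15.6% higher, and nothing is read from numbers as small as these. Slc10a1, the sodium-dependent bile acid transporter, held 412 ± 94.1 CPM in AIH and 750.1 ± 128 CPM in control livers (-0.86 ± 0.20, adjusted p = 0.00631), and Slc17a2 and Slc2a2, the glucose transporter of hepatocytes, also fell. Slc28a2, a purine nucleoside carrier, held 4.01 ± 1.10 CPM in AIH and 1.04 ± 0.266 CPM in control livers (1.94 ± 0.32, adjusted p = 0.000661), and Slc16a9 and Slc13a5, the citrate carrier, also rose. Among 15 efflux genes tested, 4 fell and 3 rose. Abcc2, which exports conjugates into bile, held 329 ± 121 CPM in AIH and 684 ± 174 CPM in control livers (-1.05 ± 0.28, adjusted p = 0.0147), and Abcc3 (-1.03 ± 0.25, adjusted p = 0.00900) and the phospholipid exporter Abcb4 (-1.25 ± 0.35, adjusted p = 0.0196) fell as well. Against asymptomatic livers, which averaged 486 CPM of Abcc2, 261 CPM of Abcc3 and 271 CPM of Abcb4, none of these passed (Abcc2 -0.56, adjusted p = 0.124; Abcc3 -0.46, 0.162; Abcb4 -0.57, 0.204). Abcc1, an export pump of many cell types, held 8.81 ± 1.40 CPM in AIH and 3.58 ± 0.741 CPM in control livers (1.30 ± 0.25, adjusted p = 0.00198), and Abcc5 and Abcb1b also rose.

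Of 24 transcription factors and receptors known to act on these transporters, 6 fell and none rose in AIH against control livers. Ppara, the fatty acid receptor, held 71.5 ± 31.0 CPM in AIH and 203 ± 34.9 CPM in control livers (-1.51 ± 0.33, adjusted p = 0.00501). Its partner Rxra (-0.53 ± 0.15, adjusted p = 0.0233) and the bile acid receptor Nr1h4 (-0.57 ± 0.17, adjusted p = 0.0240) fell less. Of 9 genes of carnitine synthesis and use tested, 5 fell and none rose, among them Bbox1, the last enzyme of carnitine synthesis, with 131 ± 19.7 CPM in AIH and 237 ± 9.55 CPM in control livers (-0.85 ± 0.18, adjusted p = 0.00376). Cpt2 (-1.33 ± 0.28, adjusted p = 0.00403) and Aldh9a1 (-0.81 ± 0.20, adjusted p = 0.0101) fell too. In control livers Cpt2 ranged from 137 to 292 CPM, the exporter Abcb4 from 259 to 618 CPM and Aldh9a1 from 399 to 465 CPM. Control 2 and control 4, high in Cyp4a14, are among these livers, and fits without them are not given for list genes. Of 8 membrane scaffold genes, Msn (1.98 ± 0.20, adjusted p = 2.0e-05) and Ezr (2.16 ± 0.30, adjusted p = 0.000199) rose with Gipc1, and Rdx, the radixin of the canalicular membrane, fell (-0.77 ± 0.24, adjusted p = 0.0367). Msn is also abundant in white blood cells, whose markers rose in the same livers, and their part in the rise of scaffold genes was not tested.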

How the data were processed

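The authors deposited raw read counts per Ensembl gene, 1 library per sample, as the whole-number values show. The submitters' processing notes name HISAT2 2.1.0, HTSeq 0.9.0, cutadapt 1.12, FastQC 0.11.5, R 4.0 and edgeR, and the builds GRCh38 and GRCm38, with no roles. The annotation release, strand setting and layout are not given in the sources used here. The 5 HTSeq summary entries (28.8% to 37.0% of reads not unique, 1.38% to 3.05% ambiguous) stayed out of library sizes. Reads not aligned were 3.2% to 6.5% in AIH, 4.9% to 9.3% in asymptomatic and 4.2% to 4.9% in control libraries. AIH 4 was the highest of its group and asymptomatic 2 the lowest of its own. The GRCm38 annotation named 51633 gene IDs, and the 279 others held 0.0161% of counts.

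Counts were filtered with filterByExpr and scaled by TMM. Groups were compared with edgeR 4.0.16 (R 4.3.3), quasi-likelihood F-test, two-sided, in 1 fit of 14 libraries that estimated each group's mean. The Benjamini-Hochberg adjustment covered all genes tested, with a threshold of 0.05. The fit for sex had a mean per group and inferred sex. The labels do not state that each sample is a separate mouse, so p-values measure the spread between these samples. A library counted as female where Xist exceeded the sum of 4 Y-linked genes. CPM are TMM-scaled, standard errors were derived from F, and the floor at no count is 3 counts. Alternatives were RLE factors, library totals, TMM without the 20 most abundant genes, other filters, DESeq2 1.42.0, voom (limma 3.58.1) and a robust spread. Further ones were only 2 groups, sex as a term, each library left out and contrasts within each sex. The contrasts within a sex came from the fit for sex, with the spread taken from all libraries. The setting without the 3 libraries above 1000 CPM of Cyp4a14 was chosen after seeing the data. Members, lists and tests were chosen with earlier results of these data known. Named were members past the threshold in any comparison, those with a mean of at least 1 CPM, and Slc22a7, Slco1a1, Slco1a4, Slco1b2 and Slco2b1. From other lists, up to 3 called genes with the smallest p in each direction were named. Slco4c1 was added after its values were seen. A member, a list gene and a motif are not reported here. The pipeline was tested on simulated data. Sequences are from RefSeq.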

Additional observations from a re-analysis of the deposited data

Results flagged for a closer look

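Of 60 sets of 1 member in 1 group (20 members), 4 held a library whose gap to the nearest other was too large for the range of its group. Chance flags about 1 in 20 such groups. Slco1a1 in AIH 4 was 709.6 CPM, against 3.08 to 18.5 CPM in the other AIH livers, and Slc22a28 in AIH 4 was 10.6 CPM, against 0 to 0.291 CPM in the other AIH livers. AIH 4 is the male liver among 4 female ones. Slc22a5 in asymptomatic 2 was 56.2 CPM, against 14.2 to 19.1 CPM in the other asymptomatic livers, and Slco1a4 in asymptomatic 2 was 157 CPM, against 23.5 to 53.5 CPM in the others. Asymptomatic 2 also held 7851 CPM of Cyp4a14.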

How the results depend on the processing

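Over all genes, AIH against control gave 2284 higher and 890 lower, against 1379 and 367 within females, 442 and 5 within males, and 984 and 262 without the 3 Cyp4a14-high libraries. In AIH against control, 2 members were called higher, but 1 with a filter of 1 CPM in 4 libraries, with only these 2 groups fitted or with sex as a term, and 0 within females, within males or without the 3 Cyp4a14-high libraries. Leaving out 1 library gave 1 to 2. The 5 called lower became 3 within females, 0 within males and 1 without the 3 Cyp4a14-high libraries, and 4 to 7 on leaving out 1 library. In asymptomatic against control, 0 were called by edgeR, with 3 lower by DESeq2, and 3 higher and 4 lower by voom. In AIH against asymptomatic, 5 higher became 3 with only 2 groups, 1 with sex as a term and 0 within males (3 to 6 on leaving out 1 library). The 3 lower became 1 with library totals, 5 with voom, 0 with sex as a term and 0 within males (2 to 5 on leaving out 1 library). Library totals moved the median log2 change of all genes to 0.14 in AIH against control and 0.17 in AIH against asymptomatic. Slc22a29 in AIH against asymptomatic turned to -0.28 within males (adjusted p = 0.945). The sex contrast gave 2 members within controls and 4 in the additive fit. Some of these settings also used fewer libraries, and the causes of the changes were not tested. Members not called changed sign in 37 of 324 fits between AIH and control, 13 of 455 between asymptomatic and control and 19 of 301 between AIH and asymptomatic. No paired analysis was possible because replicate numbers follow accession order only. Members that reached the level of the count filter in too few libraries were not tested in the main fit. Slco4c1 with 105 counts in all was among these, while Slco4a1 with 98 was tested.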
